A study of Mus musculus with 2 samples.

Results

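The spots described here were 300 of the 6380 tissue spots in 2 sections of mouse tibial fracture callus, and they were the richest in *Bglap* and *Ibsp* among spots without a *Sost* count. They were chosen by measured values. Of the 5920 spots with at least 1000 unique molecular identifiers (UMIs, each 1 probe pair counted), the 296 with the highest summed CPM (UMIs per 1000000 UMIs of the spot or group) of *Acp5*, *Ctsk* and *Mmp9* were set aside first. The 2421 remaining spots with at least 1 *Sost* UMI were set aside next, and the 300 spots with the highest summed CPM of *Bglap* and *Ibsp* were then taken from both sections together. The values of these 6 genes are therefore given as a description of the choice.

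The study asked how loss of *Nf1* in the periosteum alters fracture repair. The control mouse was *Nf1* +/flox without a Cre transgene, so that it carried a floxed allele, and the mutant was Postn-cre;*Nf1* flox/- (Nf1Postn), in which Cre is driven by the promoter of *Postn*, a gene of the periosteum and of fracture progenitors, and the other *Nf1* allele is deleted in every cell. The mice were female and 8 weeks old, and their calluses were collected 10 days after a pinned distal tibial fracture, fixed in formalin, decalcified for 3 days in 14% EDTA and embedded together. With 1 mouse per genotype and 2 sections of 1 block, which the sample labels number as biological replicates, genotype and animal cannot be told apart, and no test was run. The 95% intervals below are exact and cover counting error only.

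Osteoblasts lay down a matrix of type I collagen and then load it with mineral. *Runx2*, *Sp7* and *Dlx5* encode transcription factors of this lineage, *Ibsp* encodes bone sialoprotein, a matrix protein of early mineralization that hypertrophic chondrocytes also make, and *Bglap* encodes osteocalcin, made by mature osteoblasts. Cells buried in the matrix become osteocytes, which secrete the WNT antagonist sclerostin from *Sost*, and osteoclasts, marked by *Acp5*, *Ctsk* and *Mmp9*, resorb matrix. A Visium spot covers several cells, so the spots are regions and not cell types, and fewer cells of a type and less RNA per cell cannot be told apart.

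The genes that ranked the spots, *Bglap* and *Ibsp*, are shown here by the 250 bases before their outermost annotated starts (GRCm39, GENCODE release 39). Both are written 5′ to 3′ on the strand of the gene, and capitals mark ACCACA, the core recognized by RUNX factors, which was searched on both strands as ACCACA or TGTGGT. The *Bglap* window lies at chr3:88291772-88292021 on the minus strand and the *Ibsp* window at chr5:104446787-104447036 on the plus strand.
Bglap: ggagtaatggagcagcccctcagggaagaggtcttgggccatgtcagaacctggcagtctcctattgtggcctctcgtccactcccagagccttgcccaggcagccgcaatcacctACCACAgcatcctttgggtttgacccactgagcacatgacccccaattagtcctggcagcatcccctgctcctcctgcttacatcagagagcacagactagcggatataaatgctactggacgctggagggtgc
Ibsp: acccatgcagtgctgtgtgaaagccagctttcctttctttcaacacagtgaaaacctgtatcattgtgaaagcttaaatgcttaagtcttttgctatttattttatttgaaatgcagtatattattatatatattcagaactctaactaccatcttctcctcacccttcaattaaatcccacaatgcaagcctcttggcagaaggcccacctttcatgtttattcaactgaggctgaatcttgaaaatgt
The *Bglap* window held 1 match, whose bases lie 134 to 129 bases before the start, and the *Ibsp* window held none. Of 21738 windows of protein-coding genes, 2996 (13.8%) held a match. A match describes these letters and is not a binding site, and its relation to the levels of these genes was not tested.

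The last spots taken and left lay side by side, with summed *Bglap* and *Ibsp* CPM of 2682 and 2689 in the lowest chosen spots and 2682 and 2670 in the highest spots not taken. The median chosen spot had 3677 CPM and the highest 27154. Few molecules stood behind these ranks, since the chosen spots held 3 to 124 UMIs of both genes together with a median of 12, and 37 of them held 5 or fewer. No *Ibsp* UMI was counted in 53 of the spots and no *Bglap* UMI in 2.

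Beside all other spots, the working description of these spots as osteoblast-rich bone with few osteoclasts did not hold for the osteoclast genes. Nor were the chosen spots the richest in *Bglap* and *Ibsp*. Among spots with a *Sost* UMI 857, and among the osteoclast-rich spots 188, were at or above the lowest chosen spot. Had spots with *Sost* been kept, only 30 of the 300 would have been chosen. The osteoclast genes were not low, with a median summed CPM of 4023 for *Acp5*, *Ctsk* and *Mmp9* against 2484 in all other spots of at least 1000 UMIs (the other spots). Of the 300 spots, 220 lay above that median, 5 had no UMI of the 3 genes, and the highest, at 20116 CPM, lay just under the lowest osteoclast-rich spot at 20209. Beside the 857 spots with *Sost* at or above the lowest chosen spot, the osteoclast genes were lower. The medians were 5776 against 7565 CPM in control and 3218 against 3732 CPM in Nf1Postn. The chosen spots are called *Bglap*/*Ibsp*-rich spots here, for the genes that ranked them.

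Depth moved with the choice. The *Bglap*/*Ibsp*-rich spots had a median of 3277 UMIs, whereas the other spots had 4652, the spots with *Sost* 5281 and the osteoclast-rich spots 8309. A *Sost* UMI was found in 56.7% of control and 30.0% of Nf1Postn spots of at least 1000 UMIs, and in 22.5% and 15.2% after each spot was thinned to 1000 UMIs. When the whole choice was repeated on thinned counts, it kept 87 of the 300 spots and took 212 in control and 88 in Nf1Postn. Fewer spots had a *Sost* UMI at the lower depth, and the absence of a UMI is not absence of the transcript.

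The chosen spots made up 5.07% (95% interval 4.52% to 5.66%) of the 5920 spots. In section 1, 64 of 1655 control spots (3.87%; 2.99% to 4.91%) and 73 of 1126 Nf1Postn spots (6.48%; 5.12% to 8.08%) were chosen. In section 2 the numbers were 94 of 1695 control spots (5.55%; 4.50% to 6.74%) and 69 of 1443 Nf1Postn spots (4.78%; 3.74% to 6.01%). The share was higher in Nf1Postn in section 1 and higher in control in section 2, so the sections gave no common order of the genotypes. Their median depth was 4150 and 4381 UMIs in control and 2065 and 2845 in Nf1Postn, in sections 1 and 2.

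**Figure D1:**
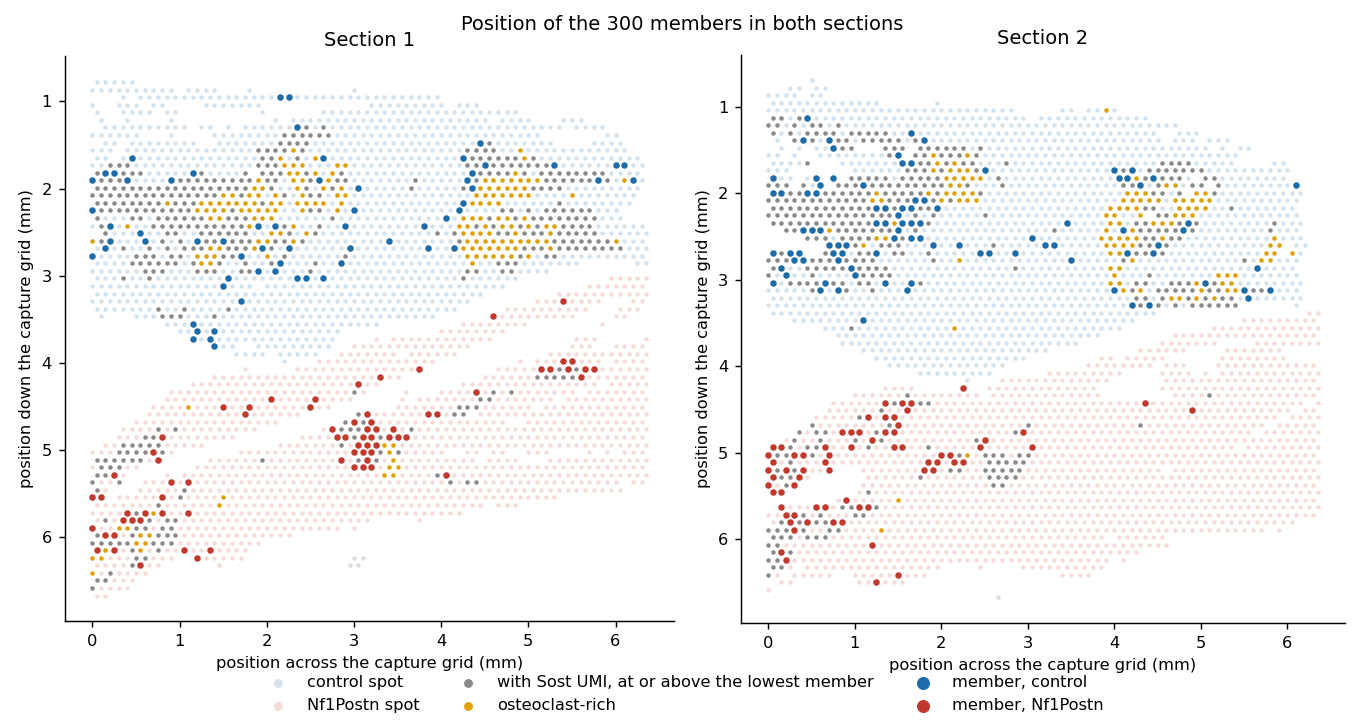
Position of the spots in each section (both axes in mm on the capture area), with *Bglap*/*Ibsp*-rich spots (named members in the plot) in dark blue for control and dark red for Nf1Postn, osteoclast-rich spots in yellow, spots with a *Sost* UMI at or above the lowest member in summed *Bglap* and *Ibsp* in gray and the other spots in pale colors. The 158 control and 142 Nf1Postn spots lie scattered and in small patches through both calluses, the largest of 16 spots in the Nf1Postn callus of section 1.

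The spots lay near each other more often than their overall share. Of the grid neighbors of these spots, 18.6% were themselves *Bglap*/*Ibsp*-rich, with 13.9% in control and 23.9% in Nf1Postn, against 5.07% of all spots. In total, 191 of 300 had such a neighbor and 109 stood alone. Neighboring spots share tissue and are not independent of each other. *Sost* spots made up 49.8% of the neighbors against 40.9% of all spots, and osteoclast-rich spots 6.40% against 8.06% in control and 1.93% against 1.01% in Nf1Postn. Of the barcodes, which mark grid positions, 2711 occurred in both sections.

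Levels around the spots are given as a description, because *Bglap* ranked the spots, and spots set aside for *Sost* or osteoclast genes were counted among the surroundings, most of them in control. In Nf1Postn, *Bglap* was 3713 CPM in the spots themselves and 1979, 1270 and 946 CPM at 1, 2 and 3 grid steps from the nearest of them, falling to 339 CPM at 4 or more steps. In control it was 2314 CPM in the spots and 2383, 2810 and 2387 CPM over the same steps, and 1280 CPM beyond. By section, *Bglap* at 2 steps was 1944 CPM against 1608 CPM in the control spots of section 1 and 3631 against 2820 in section 2, and 1445 against 4544 and 1101 against 3021 in Nf1Postn.

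Of the genes outside the choice, *Phospho1*, a phosphatase that starts mineral formation in matrix vesicles, went from 1493 CPM in the Nf1Postn spots to 957, 463, 377 and 293 CPM over the steps, and in control from 1484 to 1222, 1026, 884 and 481 CPM. *Acta1*, the actin of skeletal muscle, was 3746 CPM in the Nf1Postn spots and 16665 CPM at 4 or more steps, against 2597 and 3130 CPM in control.

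**Figure D2:**
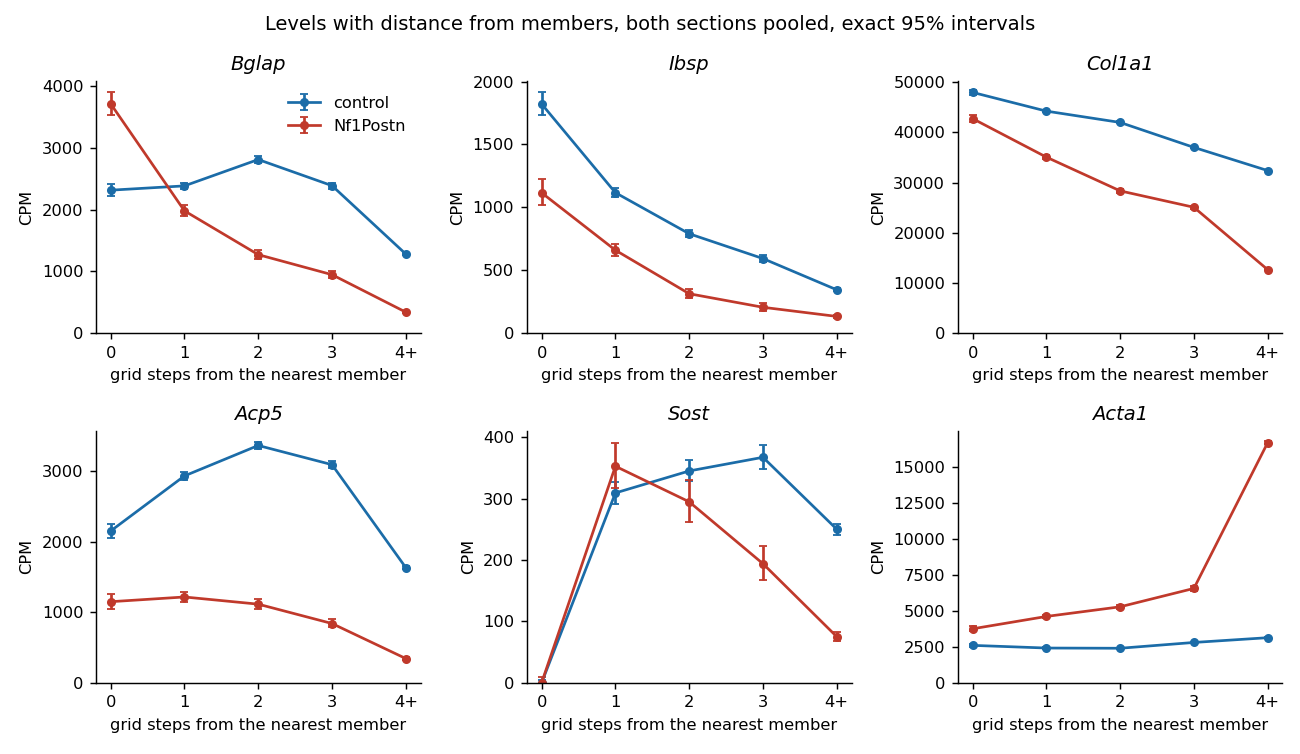
CPM by distance from the nearest *Bglap*/*Ibsp*-rich spot in grid steps (0 is the spots themselves, named members in the plot, and the last point 4 or more steps) for 6 genes in control (blue) and Nf1Postn (red), with points for the value pooled over both sections and bars for the exact 95% counting interval. *Bglap* stays between 2314 and 2810 CPM through 3 steps in control and drops from 3713 to 946 CPM in Nf1Postn.

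Because the other spots of the 2 calluses differed, the *Bglap*/*Ibsp*-rich spots were set against the other spots of their own callus, a comparison added after their division between the genotypes was seen. A gene was compared where at least 10 UMIs would fall in each group and section at equal CPM, and was counted as higher or lower where its CPM differed at least 2-fold the same way in both sections. Log2 ratios are of CPM pooled over the sections. In Nf1Postn, 35 of 3653 genes were higher (0.958%) and 140 lower (3.83%). In control, 3 of 6167 genes were higher (0.0486%) and 18 lower (0.292%). With factors from the trimmed mean of M values (TMM) in place of total UMIs, the split moved to 23 higher and 207 lower in Nf1Postn and was 2 and 17 in control, and the median over all genes in Nf1Postn moved from 0.07 to -0.21.

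Some osteoblast transcription factors were higher in the Nf1Postn spots. *Runx2*, the master regulator of the osteoblast lineage, was 373 and 393 CPM in the Nf1Postn spots of sections 1 and 2 and 180 and 105 CPM in the other Nf1Postn spots, a log2 ratio of 1.54. In control it was 380 and 317 CPM against 263 and 240 CPM, a log2 ratio of 0.44 (0.27 to 0.61). *Runx2* thus reached a like level in the spots of both calluses, and the wider gap in Nf1Postn came with low levels in its other spots. *Dlx5*, a homeobox gene of bone, had log2 ratios of 1.51 in Nf1Postn and 0.31 in control. *Sp7*, which acts after *Runx2*, was not among the genes compared by this rule in Nf1Postn and was 184 and 205 CPM there against 63.7 and 34.6 CPM outside. Of the listed osteoblast transcription factors, 3 of 7 compared were higher in Nf1Postn (median log2 0.60, beside 0.07 over all genes) and 0 of 10 in control (0.35, beside -0.08). With TMM factors *Runx2* lost the call (0.89 and 1.57 by section), *Dlx5* kept it (1.02 and 1.39), and 2 of 7 were higher (median 0.33).

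*Phospho1*, of the mineralization list, was 1359 and 1604 CPM in the Nf1Postn spots and 424 and 384 CPM in the other Nf1Postn spots (log2 1.90), and 1530 and 1451 CPM against 836 and 668 CPM in control (0.97; 0.89 to 1.05). *Sgms2*, a sphingomyelin synthase mutated in a bone fragility disorder, had a log2 ratio of 1.98 in Nf1Postn. *Alpl*, the bone alkaline phosphatase, had pooled log2 ratios of 1.43 in Nf1Postn and 0.56 in control and did not reach 2-fold in both sections of either. In the mineralization list 2 of 9 genes were higher in Nf1Postn (median 0.49) and 0 of 15 in control (0.51), medians over different sets of genes. With TMM factors the counts were again 2 of 9 and 0 of 15, but the medians were 0.21 and 0.51. *Dmp1*, a matrix phosphoprotein of young osteocytes, was 950 and 992 CPM against 357 and 227 CPM in Nf1Postn (1.83; 1.68 to 1.99) and 947 and 1092 against 771 and 672 CPM in control (0.51).

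Matrix genes were among those higher in the Nf1Postn spots. *Col1a2*, a chain of type I collagen, was 93047 and 83171 CPM in the Nf1Postn spots and 40015 and 28112 CPM outside them, a log2 ratio of 1.44 (1.42 to 1.45). *Col1a1*, the other chain, had 1.21, with section values of 0.98 and 1.35, and 0.39 in control. *Col22a1* had 1.34 in Nf1Postn, and *Plod2*, a lysyl hydroxylase that shapes collagen cross-links, had 1.51 in Nf1Postn and -0.19 in control. Of the bone matrix list, 2 of 16 genes were higher in Nf1Postn (median 0.76) and 0 of 16 in control (median 0.00), and with TMM factors 1 of 16 was, without *Col22a1* (0.89 in section 2). Of the collagen processing list, 1 of 18 was higher in Nf1Postn (0.71) and 0 of 18 in control (0.01). *Col11a2*, a fibrillar collagen of cartilage, was among the highest ratios in Nf1Postn at 1.85.

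Of the parathyroid hormone, hedgehog and IGF list 1 of 9 genes was higher in the Nf1Postn spots (median -0.30), and of the WNT and BMP receptors 0 of 3 (-0.32) and 0 of 2 (0.26). *Pth1r*, the receptor of parathyroid hormone and its related peptide, was 462 and 621 CPM in these spots and 164 and 114 CPM in the other Nf1Postn spots (log2 2.06), and 695 and 511 against 422 and 301 CPM in control (0.68). *Tnfrsf19*, a member of the tumor necrosis factor receptor family, had 1.89 in Nf1Postn. *Id3* and *Hey1*, targets of bone morphogenetic protein (BMP) and Notch signaling, had log2 ratios of 1.40 and 1.46 in Nf1Postn and 0.43 and 0.48 in control. *Id1*, another BMP target, had 0.89 in Nf1Postn and did not reach 2-fold, so that 2 of the 3 BMP targets compared were higher there (median 1.40) and 0 of 7 in control (0.26). With TMM factors 0 of 3 were (median 1.13), since *Id3* and *Hey1* had 0.88 and 0.92 in section 2. The medians within each callus are over different sets of genes. Between the Nf1Postn and control spots, 0 of 5 BMP targets were higher or lower (median -0.23, beside -0.01 over all genes).

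**Figure D3:**
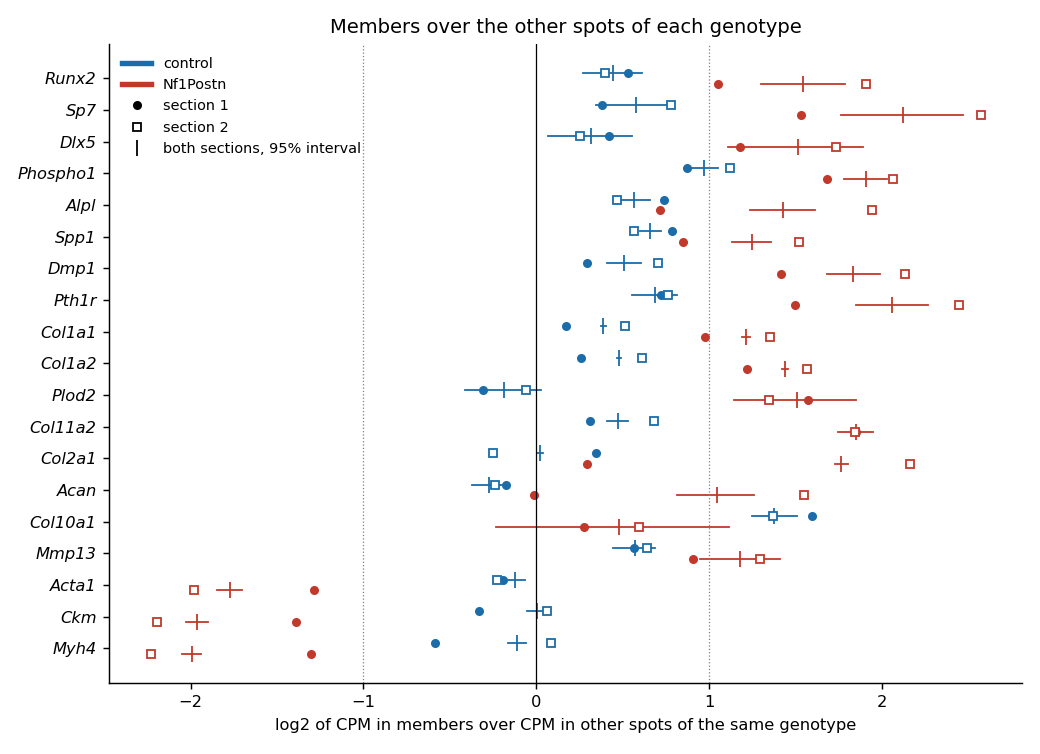
Log2 CPM ratio of *Bglap*/*Ibsp*-rich spots to the other spots of the same callus for listed genes, with control in blue and Nf1Postn in red, circles for section 1, squares for section 2, and ticks with bars for the ratio over both sections and its exact 95% counting interval. *Pth1r* lies at 2.06 in Nf1Postn and 0.68 in control, and the muscle gene *Acta1* at -1.77 and -0.13.

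Muscle genes moved the other way in Nf1Postn. The summed level of the 9 muscle genes listed was 31810 and 33964 CPM in the Nf1Postn spots of sections 1 and 2 and 82467 and 142694 CPM in the other Nf1Postn spots, with *Myh4*, a fast myosin heavy chain, the most abundant and none of the 9 at 0. All 9 were lower in the Nf1Postn spots (median log2 -1.88). In control the sums were 13836 and 25601 CPM against 17221 and 28117 CPM, and none of the 9 was lower (median -0.13). The genes with the lowest ratios in Nf1Postn were *Ano5* (-3.42), *Scn4a* (-3.01), *Smtnl1* (-2.99), *Ucp3* (-2.91), *Myot* (-2.89) and *Fbxo40* (-2.69), of which most are known from skeletal muscle. The other Nf1Postn spots, rich in muscle RNA, were the group against which the bone gene ratios of this callus were taken. The part of muscle RNA in those ratios was not tested.

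In control the genes that set the spots apart were few. *Col10a1*, the collagen of hypertrophic chondrocytes, was 988 and 349 CPM in the control spots and 327 and 135 CPM outside them, a log2 ratio of 1.38 (1.25 to 1.51). *Slc8a3*, a sodium and calcium exchanger, and *Pcolce2*, an enhancer of procollagen cleavage, had 1.12 and 0.94 by pooled counts. The lowest were *Adipoq* (-1.51), the hormone adiponectin of fat cells, *Cfb* (-1.31), *Gfra2* (-1.29), *Cmklr1* (-1.28), *Vgll3* (-1.27) and *Pamr1* (-1.27). The direction of *Col10a1* depended on the choice, since its control ratio was -1.58 when spots with *Sost* were kept and 0.07 when spots were chosen after thinning. *Pcolce2* was -0.65 with *Sost* spots kept. The ratios of *Pth1r* and *Phospho1* in Nf1Postn were 1.93 and 1.90 after thinning. Of the named genes, 2 of 9 kept the call in control and 7 of 12 in Nf1Postn.

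Levels in the Nf1Postn spots were next compared with those in the control spots, which is a comparison of 1 animal with 1 animal. The targeted gene was counted in both, with 35 and 46 *Nf1* UMIs (97.7 and 92.2 CPM) in the control spots of sections 1 and 2 and 11 and 18 (57.7 and 78.7 CPM) in the Nf1Postn spots, a log2 ratio of -0.45 (-1.12 to 0.18). Both Nf1Postn values were below both control values, but the interval includes 0. The position of the *Nf1* probes relative to the deleted part of the gene is not given in the sources used here, so these counts do not check the labels. Of 3561 genes, 12 were higher (0.337%) and 14 lower (0.393%) in Nf1Postn. None of the osteoblast transcription factors (0 of 10, median -0.19), bone matrix genes (0 of 16, -0.27) or mineralization genes (0 of 13, -0.08) was among them, beside a median of -0.01 over all genes. With TMM factors the split was 9 higher and 22 lower. The log2 ratios were 0.16 (-0.12 to 0.44) for *Runx2*, -0.01 (-0.41 to 0.38) for *Sp7*, 0.01 (-0.13 to 0.15) for *Phospho1* and -0.08 (-0.26 to 0.09) for *Dmp1*.

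*Alpl* and *Spp1* leaned to control without reaching the call. *Spp1*, the matrix protein osteopontin, was 3055 and 2604 CPM in the control spots and 1574 and 1722 CPM in the Nf1Postn spots, a log2 ratio of -0.75 (-0.88 to -0.63). *Alpl* was 1388 and 916 CPM against 535 and 721 CPM (-0.81; -1.01 to -0.61). The difference was under 2-fold in section 2 for *Alpl* and in both sections for *Spp1*.

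A few genes known from cartilage were lower in the Nf1Postn spots. *Col10a1* was 988 and 349 CPM in the control spots and 52.5 and 48.1 CPM in the Nf1Postn spots, a log2 ratio of -3.62 (-4.32 to -2.99), and in the other spots it was 327 and 135 against 43.3 and 31.9 CPM. *Sox9*, the transcription factor that specifies chondrocytes, was 486 and 323 CPM against 68.2 and 144 CPM (-1.83), and *Fgfr3*, a growth factor receptor of chondrocytes, had -1.44. *Col2a1*, the main collagen of cartilage, did not keep a direction, with 50095 and 21251 CPM in control and 2897 and 26713 CPM in Nf1Postn. Of the cartilage list 1 of 11 was lower (median -0.91), and of the hypertrophy list 1 of 3. The remaining named genes that were lower were *Galk1* (-1.48), *F13a1* (-1.37) and the histone *H2bc11* (-1.12). *Sfrp2*, a secreted WNT antagonist, had -1.11.

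Hemoglobin transcripts gave the highest ratios in the other direction. *Hbb-bs*, a beta globin, was 117 and 267 CPM in the control spots and 1879 and 1495 CPM in the Nf1Postn spots (log2 3.03; 2.79 to 3.28), and *Hba-a2*, an alpha globin, had 2.91. The 6 erythroid genes listed summed to 170 and 487 CPM in the control spots and 3169 and 2649 CPM in the Nf1Postn spots, with *Hbb-bs* the most abundant. *Slc4a1*, the anion exchanger of red cells, was at 0 in the control spots of section 2. The other spots differed in the same way, at 159 and 270 CPM in control and 1493 and 1460 CPM in Nf1Postn, so the difference was not particular to the *Bglap*/*Ibsp*-rich spots, and its part in the other ratios between the calluses was not tested. *Car2*, a carbonic anhydrase of red cells and osteoclasts, was 41.9 and 54.1 CPM against 205 and 149 CPM (1.83), *H1f1*, a linker histone, 209 and 178 against 635 and 446 CPM (1.47), and *Jtb* had 1.12. *Jtb* was -0.080 when spots with *Sost* were kept, whereas *Hbb-bs* was 3.49 and *Col10a1* -2.67 when spots were chosen after thinning. Of the 12 genes that the naming rule gave, 4 kept the call after thinning and 8 did not, among them *Sox9* (-1.42), *Fgfr3* (-1.03), *Car2* (1.23), *H1f1* (1.26) and *Jtb* (0.65).

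*Bglap* and *Ibsp*, whose sum made the choice, entered it in unequal parts. *Ibsp* gave 56.8% (54.1% to 59.5%) and 36.4% (34.4% to 38.4%) of the UMIs of both genes in the control spots of sections 1 and 2, and 15.3% (13.2% to 17.7%) and 31.0% (28.2% to 34.0%) in the Nf1Postn spots. These genes ranked the spots, so the shares describe the choice, and the sections of each callus differed from each other by more than the calluses did in section 2. *Bglap* was 1608 and 2820 CPM in control and 4544 and 3021 CPM in Nf1Postn, and *Ibsp* 2114 and 1613 against 824 and 1359 CPM. In the 857 spots with *Sost* at or above the lowest chosen spot, the *Ibsp* share was 20.8% and 14.1% in control and 6.94% and 21.3% in Nf1Postn.

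**Figure D4:**
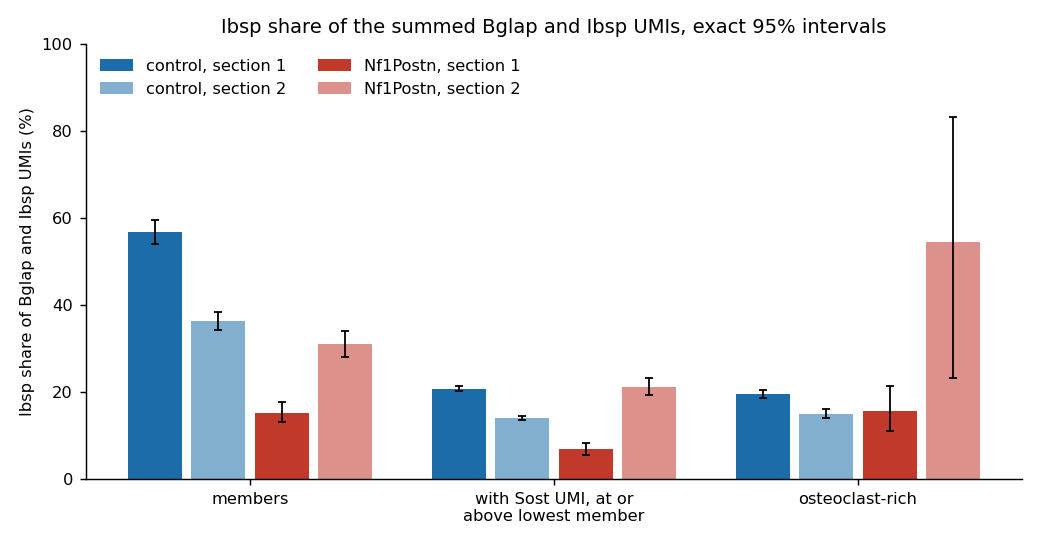
Share of *Bglap* and *Ibsp* UMIs that were *Ibsp* (percent), by section and genotype, for *Bglap*/*Ibsp*-rich spots (members), spots with a *Sost* UMI at or above the lowest member in summed CPM and osteoclast-rich spots, with exact binomial 95% intervals. The control *Bglap*/*Ibsp*-rich spots lie at 56.8% and 36.4%, above these *Sost* spots at 20.8% and 14.1%, and the tall bar of Nf1Postn osteoclast-rich spots in section 2 rests on 11 UMIs.

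The spots of each callus were then divided at the median *Ibsp* share of their callus, 33.9% in control and 14.6% in Nf1Postn, as a description of how they varied. The *Ibsp*-leaning control spots (79 of 158) were deeper, with a median of 5502 UMIs against 3652 in the *Bglap*-leaning spots. They held more *Col10a1*, at 1171 and 624 CPM against 524 and 46.3 CPM in sections 1 and 2, and more *Acan*, the aggrecan of cartilage, at 1654 and 1213 against 544 and 446 CPM. *Ihh*, the hedgehog ligand of prehypertrophic chondrocytes, had a log2 ratio of 2.35 (1.01 to 4.05), *Spp1* 1.39 (1.24 to 1.54), *Ifitm5*, a membrane protein of mineralizing osteoblasts, 1.13 and *Mmp13*, a collagenase of hypertrophic chondrocytes and osteoblasts, 1.08. *Acta1* was lower at 724 and 1531 CPM against 4647 and 4924 CPM. The division used the ranking genes, and its part and that of depth in these ratios were not tested.

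In Nf1Postn *Col10a1* did not differ beyond counting error (-0.20; -1.58 to 1.19), nor did *Mmp13* (-0.04; -0.48 to 0.41) or *Dmp1* (-0.22; -0.51 to 0.06), whereas in control *Dmp1* had 0.72. Other genes had pooled ratios above 0 beyond counting error, each resting on 1 section. *Acan* had 1.39 (0.88 to 1.91; 0.03 and 1.70 in sections 1 and 2), *Pth1r* 0.60 (-0.03 and 1.01), *Spp1* 0.45 (0.18 and 0.69) and *Phospho1* 0.43 (0.82 and 0.08). *Col2a1* was 2722 CPM in *Ibsp*-leaning against 3059 CPM in *Bglap*-leaning spots of section 1 and 40351 against 4278 CPM in section 2, so the pooled log2 ratio of 2.82 rested on section 2. *Sp7* had 0.85 in both calluses, but 0.21 (-0.61 to 1.10) and 1.26 in sections 1 and 2 of control, so that value rested on section 2, and 1.04 (-0.02 to 2.18) and 0.67 (-0.29 to 1.72) in Nf1Postn. *Acta1* was again lower, with -0.87 (-1.02 to -0.72).

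**Figure D5:**
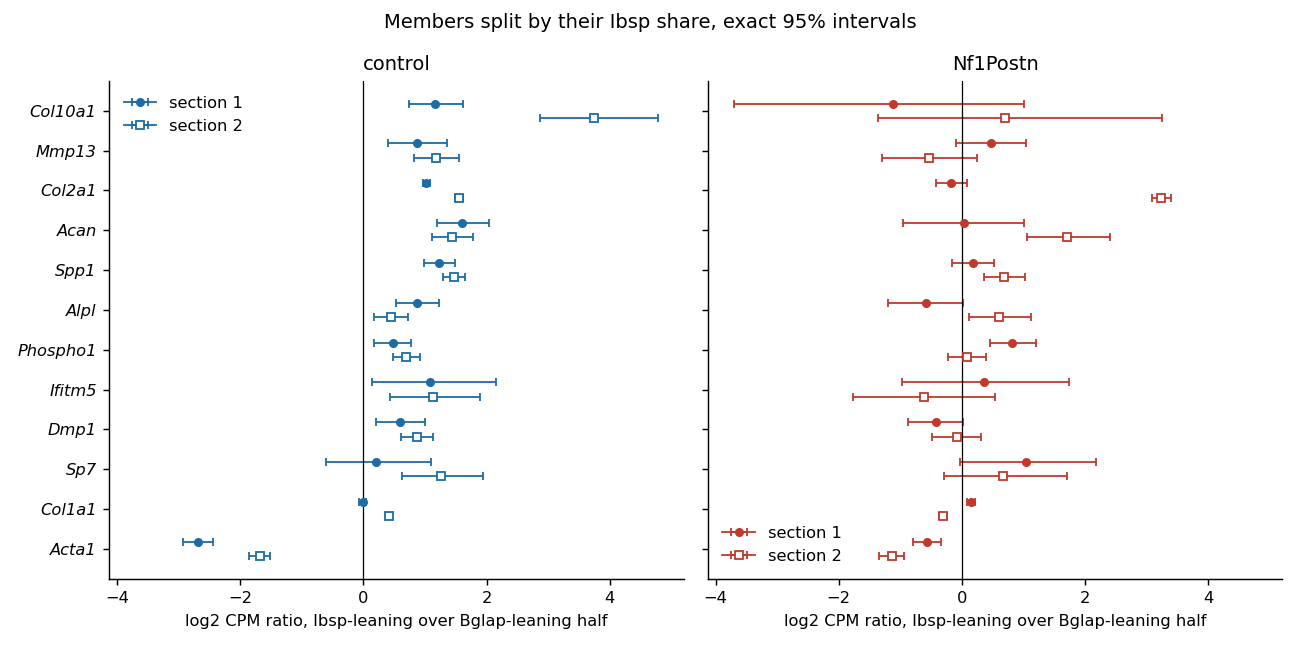
Log2 CPM ratio of *Ibsp*-leaning to *Bglap*-leaning spots within each callus (horizontal axis) for selected genes, with circles for section 1, squares for section 2 and bars for the exact 95% counting interval. In control *Col10a1* lies at 1.16 and 3.75 and *Acta1* at -2.68 and -1.69, and in Nf1Postn *Acta1* lies at -0.57 and -1.14.

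The 5 largest patches of touching spots are given as single places. The patch of 16 spots in the Nf1Postn callus of section 1 had 4697 CPM of *Bglap*, 1145 of *Ibsp*, 54589 of *Col1a1* and 1846 of *Phospho1*, and 2 *Col10a1* UMIs in all. A patch of 10 control spots in section 2 had 2628 CPM of *Bglap*, 1252 of *Ibsp*, 53909 of *Col1a1* and 1273 of *Phospho1*, with 4906 CPM of *Acp5* and 5625 of *Ctsk* against 1871 and 2787 CPM in the Nf1Postn patch. Patches of 9 and 8 Nf1Postn spots in section 2 had 3503 and 5302 CPM of *Bglap*, 511 and 528 of *Ibsp*, 4597 and 2303 of *Col2a1* and 2408 and 6525 of *Acta1*. A patch of 6 control spots in section 2 had 467 CPM of *Bglap* (13 UMIs), 3302 of *Ibsp*, 251 of *Col10a1* (7 UMIs) and 3158 of *Dmp1*. Each patch is 1 place in 1 section.

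Against all other spots of both calluses, 7 of 7743 genes were higher (0.0904%) and 30 lower (0.387%) in the *Bglap*/*Ibsp*-rich spots, or 3 and 44 with TMM factors. The higher genes were *Bcan* (log2 1.38; 1.05 to 1.70), a proteoglycan of the aggrecan family, *Tnfrsf19* (1.25), *Col10a1* (1.22), *Hba-a2* (1.21), *Cdo1* (1.20), a cysteine dioxygenase, *Fat3* (1.17), a large protocadherin, and *Ptprd* (1.08), a receptor phosphatase. The lowest were *Sfrp5* (-2.15), a secreted WNT antagonist, *Ucp3* (-2.04), *Fbxo40* (-1.59), *Crabp1* (-1.57), a binding protein of retinoic acid, *Art3* (-1.53), *Ky* (-1.50), *Ano5* (-1.50) and *Mylk4* (-1.46), of which several are muscle genes. No osteoblast transcription factor reached 2-fold in both sections here (0 of 11, median 0.51, beside -0.04 over all genes), and no mineralization gene (0 of 15, median 0.54). *Phospho1* came close, at 1471 and 1499 CPM against 757 and 575 CPM, with log2 ratios of 0.96 and 1.38. The groups held the calluses in unequal parts, with 419340 Nf1Postn and 857052 control UMIs against 8.81e+06 and 2.47e+07. Within each callus no erythroid gene was called (0 of 2 in control and 0 of 3 in Nf1Postn). With *Sost* spots kept, *Col10a1*, *Hba-a2* and *Crabp1* turned to -1.24, -0.88 and 0.13, and *Hba-a2* was -0.51 after thinning. Of the 15 named genes 5 kept the call after thinning, *Bcan*, *Tnfrsf19*, *Sfrp5*, *Art3* and *Mylk4*.

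The osteoclast-rich spots, of which 270 lay in control and 26 in Nf1Postn, differed in more genes. Against them 75 of 7410 genes were higher (1.01%) and 91 lower (1.23%) in the *Bglap*/*Ibsp*-rich spots. Of 13 osteoclast genes that the choice did not use, 10 were lower (median log2 -1.70), among them *Dcstamp* (-3.41) and *Ocstamp* (-2.02), which act in osteoclast fusion, *Oscar* (-2.60), an osteoclast receptor, *Siglec15* (-2.33), *Slc9b2* (-2.14) and *Tnfrsf11a* (-1.70), the receptor of RANKL. *Mt3* (-2.43) and *Rufy4* (-2.29) were also among the 6 lowest. Osteocyte genes were 2 of 8 lower, *Dmp1* at 948 and 1061 CPM against 2084 and 2160 CPM (-1.06) and *Mepe* at 12.8 and 15.1 against 67.5 and 38.6 CPM (-2.02). *Runx2* did not differ beyond counting error (-0.12; -0.28 to 0.04). Muscle genes were 8 of 9 higher (median 1.25), or 5 of 9 with TMM factors (median 1.17). Globins again led, with *Hba-a2* at 2.62 and *Hbb-bs* at 2.61. *Ostn*, a secreted peptide of bone and muscle (1.68), *Chad*, a cartilage protein (1.72), *Myo18b* (1.91) and *Pdlim3* (1.66) followed. Since the groups held the calluses in unequal parts, the control spots were also compared alone, which gave 34 higher and 90 lower genes, with *Ostn* at 1.86 and *Dcstamp* at -3.36, while *Hba-a2* (1.11), *Hbb-bs* (1.00) and *Myo18b* (1.78) lost the call. With TMM factors over both calluses the counts were 51 and 111. After thinning the 6 lowest genes named and *Ostn* (2.04) and *Pdlim3* (1.52) kept the call, and *Chad* (0.29), *Myo18b* (1.38), *Hba-a2* (0.94) and *Hbb-bs* (0.99) did not.

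Few genes set the chosen spots apart from spots with a *Sost* UMI. Over all of them, 3 of 7644 genes were higher in the *Bglap*/*Ibsp*-rich spots (0.0392%), namely *Hba-a2* (log2 1.51), *Hbb-bs* (1.37) and *Col10a1* (1.06), and 7 lower (0.0916%), or 2 and 12 with TMM factors. Among the lowest were *Crabp1* (-1.55), *Cfd* (-1.34), a fat cell protease, *Palmd* (-1.25), *Eps8* (-1.16) and *Art3* (-1.15). With *Sost* spots kept in the choice, *Hba-a2*, *Hbb-bs*, *Col10a1* and *Crabp1* were -0.55, -0.96, -1.40 and 0.13, and after thinning *Hba-a2* and *Hbb-bs* were -0.58 and -0.64, and none of the 9 named genes kept the call. In control spots alone *Hbb-bs* fell short of the call at 0.81, as did *Palmd* (-0.89) and *Eps8* (-0.76), and *Col10a1* was 1.36.

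The 857 *Sost* spots at or above the lowest chosen spot in summed *Bglap* and *Ibsp* CPM, a comparison added after values were seen, had a median of 4904 CPM of both genes against 3677 in the chosen spots and 5378 UMIs against 3277, so that they were matched in neither level nor depth. The *Bglap*/*Ibsp*-rich spots held more of 14 of 7478 genes (0.187%) and less of 4 (0.0535%), or 7 and 10 with TMM factors. Of the 11 cartilage genes 6 were higher (median log2 1.03, beside 0.01 over all genes), or 2 with TMM factors (median 0.92). *Col2a1* was 33702 and 22968 CPM in the *Bglap*/*Ibsp*-rich spots, with a log2 ratio of 1.22, and *Col9a3* 1360 and 945 CPM against 586 and 397 CPM (1.18). *Matn3* (1.06), *Hapln1* (1.03), *Clec3a* (1.23) and *Prkg2* (1.25), all known from cartilage, were higher too, as was *Col10a1* (1.05), and globins led with *Hbb-bt* (2.01). With TMM factors 0 of the 4 hypertrophy genes compared, *Col10a1* among them, were higher, and 3 of 3 erythroid genes were. Of the osteocyte list 0 of 8 genes reached 2-fold in both sections (median -0.70), against spots that were chosen for *Sost*, itself an osteocyte gene. With TMM factors 2 of the 8 were lower (median -0.81). *Dmp1* was 948 and 1061 CPM against 1531 and 1373 CPM (-0.52; -0.61 to -0.44), and *Phex*, a peptidase of osteocytes, 51.0 and 70.1 CPM against 110 and 104 CPM (-0.79). *Runx2* was alike at -0.07 (-0.22 to 0.07). The 4 lower genes were *Robo2* (-1.47), *Magi2* (-1.34), *Jam3* (-1.19) and *Nog* (-1.16), the last an antagonist of BMPs. None of the 10 genes that the naming rule gave kept the call after thinning, where *Col2a1* was 0.67, *Clec3a* 0.93, *Prkg2* 0.70, *Hbb-bt* 0.11, *Robo2* 0.36 and *Nog* 0.25. In control spots alone 12 genes were higher and 5 lower, with *Col2a1* at 1.42, *Clec3a* at 1.53 and *Magi2* at -1.81, while 6 of the 10 named genes were not called, *Prkg2* (1.21), *Robo2* (-1.46), *Nog* (-1.23), *Hba-a2* (1.01), *Hbb-bs* (0.97) and *Hbb-bt* (0.37).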

How the data were processed

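Fixed sections were hybridized with mouse probe pairs on Visium slides and processed by the authors with Space Ranger 1.3.0 (mm39, per the processing notes) and Partek Flow. The values deposited by the authors were raw UMIs per gene and spot, handled like expected counts because 10 gene entries hold values that are not whole, with genotype labels that 5 spots lack. The entry without a gene name (11.6 and 6.8 UMIs, 6.8e-05% and 3.8e-05%) was left out. CPM were UMIs pooled over the spots of a group divided by their total. Genes needed a UMI in 0.3% of spots and 10 expected UMIs per group and section, and a gene was called where both sections differed 2-fold in 1 direction. Named were listed genes and, among called genes with 50 UMIs per section, the 14 highest and 8 lowest against other spots and the 6 highest and lowest elsewhere. The spots and the gene lists were chosen with earlier results of these data known. Intervals are exact Poisson, binomial or conditional binomial. Alternatives covered depth, the steps of the choice, thinning, TMM and the filter. Python 3.11.15, numpy 2.4.6, pandas 2.3.3, scipy 1.17.1 and edgeR 4.0.16 (R 4.3.3, TMM only) were used, and the code was tested on simulated data. Some genes that this rule names are not reported here.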

Additional observations from a re-analysis of the deposited data

Results flagged for a closer look

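Of 174 listed or named genes compared in both calluses, 23 moved one way in both sections of control and the other way in both sections of Nf1Postn when the *Bglap*/*Ibsp*-rich spots were set against the other spots of their callus (13.2%), beside 452 of all 3586 genes compared (12.6%). In 6 of them (3.45%, beside 1.65% of all genes) the pooled ratios lay at least 2-fold apart, and these are given here as log2 ratios. Some of the 174 genes were named because they differed 2-fold in comparisons of these data, so the larger share cannot be read as an excess. The difference between the calluses was not tested. *Plod2* was -0.19 in control and 1.51 in Nf1Postn, and *Plod3*, also a lysyl hydroxylase, -0.42 and 0.69. *Pdpn*, the membrane glycoprotein podoplanin of osteoblasts and early osteocytes, was -0.73 and 0.44, the latter resting on section 2 (0.69, and 0.067 in section 1, which was -0.091 with TMM factors), and *H1f1*, a linker histone, -0.086 and 1.05. *Mbp*, the myelin basic protein of Schwann cells, was 0.31 and -1.16, with the control value resting on section 1 (0.65, and 0.0043 in section 2), and *Pdlim3*, a protein of the muscle Z-disc, 0.18 and -1.44.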

How the results depend on the processing

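Of 1036 gene ratios under the alternatives, 728 kept their direction and their call, 293 kept the direction without the call and 15 reversed, and 116 of 224 counts and shares moved by over 1.5 times or beyond their interval; no cause was tested. When spots with *Sost* were kept, the log2 ratios against all other spots of *Col10a1*, *Hba-a2* and *Crabp1* became -1.24, -0.88 and 0.13, those against *Sost* spots of *Hba-a2*, *Hbb-bs*, *Col10a1* and *Crabp1* became -0.55, -0.96, -1.40 and 0.13, *Jtb* between the genotypes became -0.080, and *Col10a1* and *Pcolce2* within control became -1.58 and -0.65. After thinning, *Hba-a2* against all other spots was -0.51, *Hba-a2* and *Hbb-bs* against *Sost* spots were -0.58 and -0.64, and *Robo2* and *Nog* against upper *Sost* spots were 0.36 and 0.25. Counts of genes are named by the comparison they belong to, where upper *Sost* spots are the 857 at or above the lowest chosen spot. With a minimum of 2000 UMIs, the count of higher genes became 4 (between the genotypes) and the count of lower genes became 9 (between the genotypes). The chosen spots were then 5.93% of all spots, 5.66% of control spots. With no spot set aside for osteoclast genes, the count of higher genes became 1 (within control) and the count of lower genes became 48 (all other spots), 1 (upper *Sost* spots), 31 (within control). With the top 10% set aside for osteoclast genes, the count of higher genes became 1 (within control). With *Sost* spots kept, the count of higher genes became 52 (all other spots), 40 (osteoclast-rich spots), 37 (*Sost* spots), 2 (between the genotypes), 39 (within control), 17 (within Nf1Postn) and the count of lower genes became 149 (all other spots), 128 (*Sost* spots), 4 (between the genotypes), 164 (within control). The chosen spots were then 7.07% of control spots, 2.45% of Nf1Postn spots, 56.1% of the neighbors. With 150 spots, the count of higher genes became 32 (osteoclast-rich spots), 2 (upper *Sost* spots) and the count of lower genes became 11 (*Sost* spots). The chosen spots were then 2.53% of all spots, 2.24% of control spots, 2.92% of Nf1Postn spots, 16.6% of the neighbors. With 600 spots, the count of higher genes became 2 (all other spots), 218 (osteoclast-rich spots), 5 (*Sost* spots), 6 (upper *Sost* spots), 21 (between the genotypes), 1 (within control) and the count of lower genes became 12 (all other spots), 4 (*Sost* spots), 2 (upper *Sost* spots), 10 (within control), 85 (within Nf1Postn). The chosen spots were then 10.1% of all spots, 9.64% of control spots, 10.8% of Nf1Postn spots, 24.7% of the neighbors. With the 150 highest spots of each section, the count of higher genes became 8 (upper *Sost* spots) and the count of lower genes became 11 (*Sost* spots). With the choice made after thinning to 1000 UMIs, the count of higher genes became 25 (all other spots), 40 (osteoclast-rich spots), 1 (*Sost* spots), 8 (upper *Sost* spots), 4 (between the genotypes), 14 (within control) and the count of lower genes became 110 (all other spots), 29 (*Sost* spots), 0 (upper *Sost* spots), 67 (within control). The chosen spots were then 6.33% of control spots, 3.43% of Nf1Postn spots, 21.9% of the neighbors. With the mean CPM over spots, the count of higher genes became 8 (upper *Sost* spots), 20 (between the genotypes), 0 (within control) and the count of lower genes became 12 (*Sost* spots), 13 (upper *Sost* spots). With TMM factors, the count of higher genes became 3 (all other spots), 7 (upper *Sost* spots), 23 (within Nf1Postn) and the count of lower genes became 12 (*Sost* spots), 10 (upper *Sost* spots), 22 (between the genotypes). With no filter on low counts, the count of higher genes became 790 (all other spots), 472 (osteoclast-rich spots), 844 (*Sost* spots), 683 (upper *Sost* spots), 395 (between the genotypes), 297 (within control), 1021 (within Nf1Postn) and the count of lower genes became 120 (all other spots), 155 (osteoclast-rich spots), 79 (*Sost* spots), 44 (upper *Sost* spots), 107 (between the genotypes), 138 (within control), 321 (within Nf1Postn). In control spots alone, the count of higher genes became 34 (osteoclast-rich spots). In each section alone, where a call needs 1 section, the higher and lower genes numbered 27 to 53 and 187 to 377 (all other spots), 179 to 354 and 235 to 306 (osteoclast-rich spots), 11 to 17 and 140 to 192 (*Sost* spots), 43 to 57 and 89 to 101 (upper *Sost* spots), 77 to 204 and 140 to 226 (between the genotypes), 13 to 27 and 208 to 246 (within control), and 62 to 212 and 285 to 517 (within Nf1Postn). The chosen spots were 3.87% to 5.55% of control spots and 4.78% to 6.48% of Nf1Postn spots. The settings *Sost* spots kept and no osteoclast step gave no value for the comparisons whose groups they empty. Depth limits the Nf1Postn spots most, which held 419340 UMIs against 857052 in control.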

Other observations

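Further lists of other cell types and pathways are given by their medians and calls, beside 0.292% of all genes called lower within control and 3.83% within Nf1Postn. Within control, the 10 progenitor genes compared had a median log2 ratio of -0.55 to the other control spots with 1 of them lower, the 4 adipocyte genes -1.01 with 1 lower, the 5 tendon genes -0.48 with none, and the 6 macrophage genes -0.35 with none, beside -0.08 over all genes. In Nf1Postn the progenitor list was at -0.39 with 1 of 10 lower, the macrophage list at -0.02 and the tendon list at -0.37 with 0 of 4. Glycolysis genes were at -1.17 in Nf1Postn with 1 of 7 lower, the hexokinase *Hk2* (-1.36), and at -0.29 in control, and with TMM factors 4 of 7 were lower in Nf1Postn, as were 3 of 10 progenitor genes. Muscle genes moved with them, with 9 of 9 lower in Nf1Postn (median -1.88; summed 31810 and 33964 CPM against 82467 and 142694 CPM outside) and 0 of 9 in control (-0.13), and their part in these values was not tested. *Aldoa*, an aldolase, was 614 and 415 CPM in the Nf1Postn spots against 1114 and 1884 CPM outside them and reached 2-fold in section 1 only with TMM factors. Genes of the RAS and ERK pathway, which neurofibromin restrains, had medians of -0.04 in Nf1Postn and 0.18 in control with none reaching 2-fold in both sections, and -0.16 between the genotypes.

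Genes that osteoblasts use to govern osteoclasts were counted in few UMIs. *Tnfsf11*, the osteoclast-forming ligand RANKL, was 64.2 and 56.1 CPM in the control spots and 42.0 and 35.0 CPM in the Nf1Postn spots. *Tnfrsf11b*, its decoy receptor osteoprotegerin, was 55.8 and 26.1 CPM against 31.5 and 48.1 CPM, so that the genotypes overlapped.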
